A study of Mus musculus with 4 samples.

Results

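The 10 genes described here encode the core of the mouse small RNA pathway. They are the Argonautes Ago1, Ago2, Ago3 and Ago4, the nuclear Microprocessor subunits Drosha and Dgcr8, the export receptor Xpo5, the cytoplasmic nuclease Dicer1 and its partners Tarbp2 and Prkra. They were taken by name, as genes of the pathway that an injected small interfering RNA (siRNA) enters. Drosha, Dgcr8 and Xpo5 act on microRNA hairpins, before the steps at which an siRNA enters. All 10 genes were found among the 53715 gene rows of the deposited table. The rule used no measured value, but the members were chosen with earlier results of these data known. Whole 2-cell mouse embryos of a C57BL/DBA2 background were profiled by sequencing of pre-amplified cDNA from poly(A) RNA. In the 2 knockdown libraries the zygotes had been injected with an siRNA against SPENH0335, which the series' title places among enhancer-derived RNAs. In the 2 control libraries they had been injected with siNC, a control siRNA. The concentration was 20 μM in both, and the zygotes came from the oviduct and were cultured in KSOM, an embryo medium. Since both groups carry an siRNA, their comparison holds no embryo without one, and uninjected embryos were not analysed here.

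A microRNA is cut in the nucleus and again in the cytoplasm on its way to an Argonaute. Drosha, guided by the RNA-binding protein Dgcr8, releases a hairpin from the primary transcript, Xpo5 carries it out of the nucleus, and Dicer1 with Tarbp2 or Prkra trims it to a short duplex. An siRNA made from long double-stranded RNA enters at Dicer1, and a synthetic siRNA duplex can be loaded directly. One strand is then held by an Argonaute, of which Ago2 is the member best known for cutting matched targets. In mouse oocytes the siRNA branch is essential while microRNAs have little activity, and rodent oocytes make a shorter Dicer protein from a retrotransposon promoter within the gene. Counts per gene cannot separate that isoform from the full-length one.

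Total counts were 94257563 and 99011109 in the knockdown libraries, against 87900405 and 78865491 in the control libraries. Transcripts of the 2-cell stage and of the oocyte were present in all 4 libraries. Values are in CPM, counts scaled by the library total after that total is adjusted with a TMM factor for each library. The 11 stage genes checked summed to 1245 and 1166 CPM in knockdown and to 999 and 1065 CPM in control. The 12 oocyte genes summed to 9939 and 10424 CPM in knockdown and 11163 and 11023 CPM in control. Markers of cumulus and granulosa cells, of sperm, and of blood, oviduct and stroma summed to between 46.0 and 194 CPM in each library. The sperm list had the highest sums, 184 to 194 CPM, of which Odf2 alone was 172 to 179 CPM. No other marker of that list exceeded 8.16 CPM in any library. Inha, Smcp, Hbb-bs, Hbb-bt and Col3a1 were at 0 counts in every library, while other markers of the same lists were present: Cyp19a1 at 36.8 to 55.7 CPM, Pecam1 at 49.3 to 61.1 CPM, Hba-a1 at 10.4 to 27.1 CPM and Lyz2 at 1.44 to 19.4 CPM, highest in control replicate 2. No row names SPENH0335, so the extent of its knockdown was not measured. How many embryos made a library, and whether replicates came from separate collections, is not stated in the labels, so the p-values reflect the spread of these 4 libraries alone, and that spread may be technical. In whole embryos single cells are not told apart, and CPM, being relative, does not show a change in the total RNA of an embryo.

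Levels are compared between genes as CPM divided by the length of the gene's merged exons in kilobases (CPM per kb). Dicer1 had the highest mean level, 29.8 CPM per kb over the 4 libraries, and stood above 92.7% of the tested genes with an annotated length. Ago3 followed with 17.5 CPM per kb and Drosha with 14.1 CPM per kb, and the libraries of Ago3 and Drosha overlapped. A 6.54-fold step separated Drosha from Tarbp2, at 2.16 CPM per kb. Ago2 at 1.66, Xpo5 at 1.46 and Dgcr8 at 1.03 CPM per kb came next, and the libraries of each pair of neighbours from Tarbp2 down to Dgcr8 overlapped. Ago4 at 0.618, Prkra at 0.410 and Ago1 at 0.351 CPM per kb were the lowest, and the libraries of neighbours among them also overlapped. Ago1 stood above 30.3% of the tested genes. The abundant transcripts of the pathway at this stage were those of both nucleases and of a single Argonaute. With the longest annotated transcript as the length, Dicer1 stood at 50.6 CPM per kb, because many of its merged exon bases lie outside that transcript. Ago2 then moved to the 7th place, below Xpo5 and Dgcr8, and the other members kept their order.

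**Figure D1:**
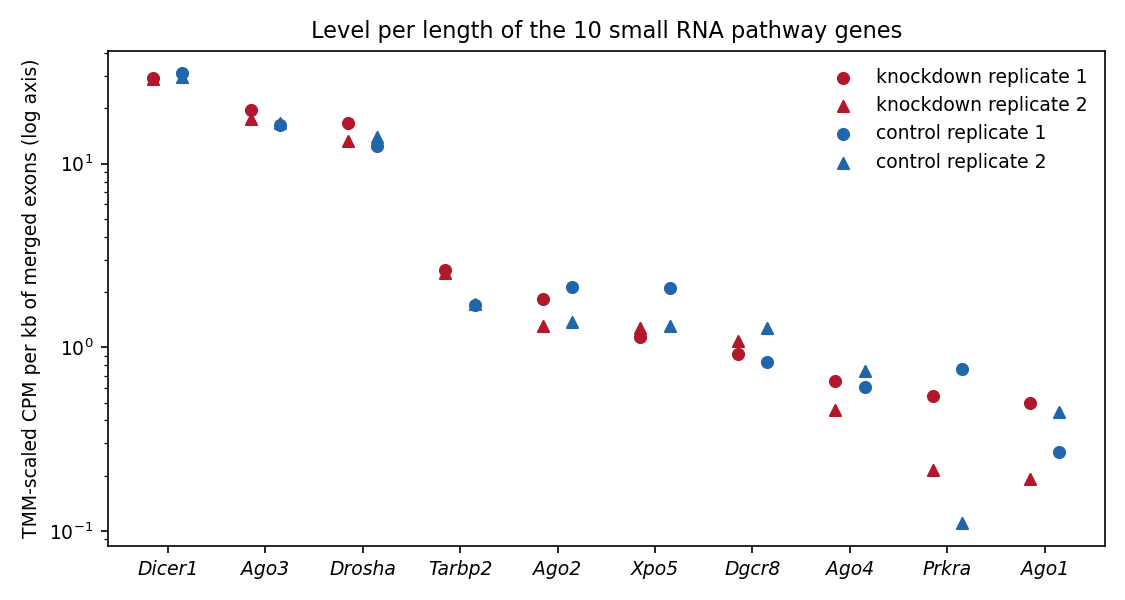
Level of the 10 genes in each library, as CPM per kb of merged exons on a log axis, with knockdown libraries left of control libraries for each gene. Dicer1, Ago3 and Drosha lie above 10 CPM per kb in all 4 libraries and the other 7 genes lie below 3.

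Knockdown and control embryos were compared to ask whether this machinery changes when SPENH0335 is targeted. None of the 10 genes passed the test (edgeR quasi-likelihood test with Benjamini-Hochberg adjustment over 25565 genes, adjusted p 0.9999 for each), and 0% of all genes tested passed it. DESeq2 and limma-voom also called 0 of the 10 genes, and DESeq2 called 53 genes in all. Before adjustment 1 member, Tarbp2, had a p under 0.05, against 3.85% of all genes tested, and it was higher in knockdown, as were 1.56% of all genes, while 0 members were lower against 2.29%. The fitted log2 fold change, knockdown over control, was above 0 for 3 members, against 49.7% of all genes, and below 0 for 7, with a median of -0.07 against -0.0025 over all genes tested. The sign of the members' median depended on single libraries: it was 0.03 without control replicate 1, 0.05 without control replicate 2 and 0.16 without knockdown replicate 2, against -0.24 without knockdown replicate 1. The groups did not overlap for 4 members, 2 higher and 2 lower in knockdown, against 32.7% of all genes tested. For 5 of the 10 genes the 95% interval of the fold lay within 2-fold in either direction, and for the other 5 it reached past 2-fold on at least 1 side. Without knockdown replicate 2 the members with an unadjusted p under 0.05 were 2 others, Ago3 (p 0.0159) and Drosha (p 0.0355), again with none past the adjusted threshold in edgeR.

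**Figure D2:**
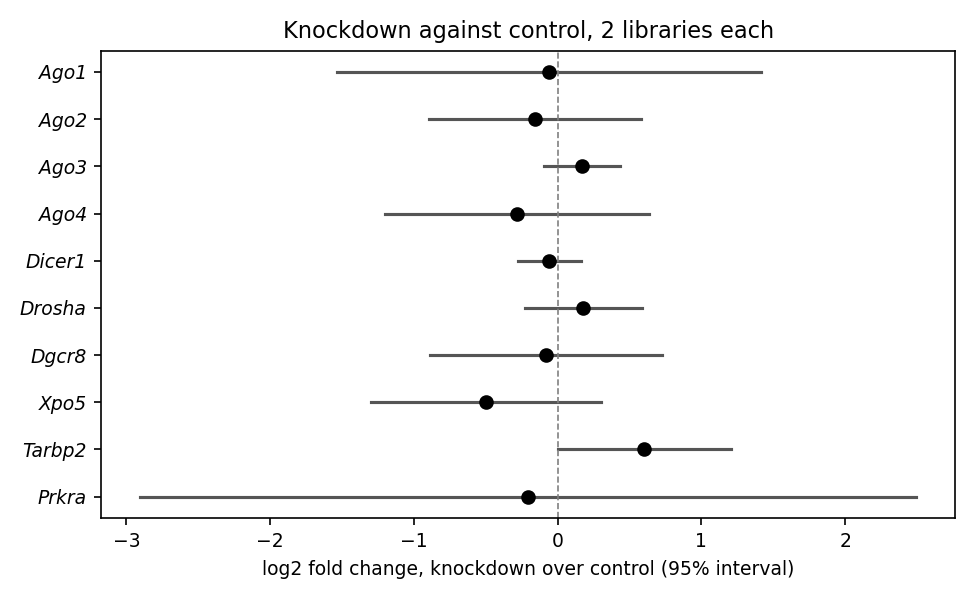
Fitted log2 fold change of each gene, knockdown over control, with its 95% interval, from 2 libraries a group. The interval spans 0 for every gene except Tarbp2, whose lower end is 0.0013, and is widest for Prkra.

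Among the Argonautes, Ago3 was the abundant one in every library. Ago3 (ENSMUSG00000028842, chromosome 4, 126331704 to 126429556, GRCm38) had 323 and 290 CPM in the knockdown libraries, against 269 and 276 CPM in the control libraries. Both knockdown values lay above both control values. The log2 fold change was 0.17 (SE 0.11, 95% interval -0.09 to 0.43, unadjusted p 0.162 and adjusted p 0.9999 by edgeR). Ago3 is an Argonaute that binds microRNAs and whose human counterpart is known to cut targets only with particular guides.

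Ago2, the slicing Argonaute (ENSMUSG00000036698, chromosome 15, 73095844 to 73184935), had 25.6 and 18.5 CPM in knockdown, against 29.9 and 19.3 CPM in control. The groups overlapped, and replicate 1 was the higher one in both. The replicates differed 1.39-fold in knockdown and 1.55-fold in control, more than the groups did (log2 fold change -0.16, 95% interval -0.90 to 0.58). Its direction was the other without control replicate 1 (log2 fold change 0.19) and without knockdown replicate 2 (0.07).

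The other Argonautes were scarce. Ago4 (ENSMUSG00000042500, chromosome 4, 126489541 to 126533472) had 4.57 and 3.17 CPM in knockdown and 4.25 and 5.18 CPM in control, with overlapping groups (log2 fold change -0.28, SE 0.37). Ago1 (ENSMUSG00000041530, chromosome 4, 126435012 to 126468583) had 4.03 and 1.55 CPM in knockdown and 2.19 and 3.63 CPM in control. The knockdown replicates of Ago1 lay at both ends of its range, with the control replicates between them, and the fold change took the other sign without control replicate 2 (log2 0.35) or without knockdown replicate 2 (0.47). Ago1, Ago3 and Ago4 are neighbours on the same strand of chromosome 4, so the most abundant Argonaute transcript of these embryos lies beside the 2 scarcest ones. How the counting divided reads shared by such related genes is not stated.

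As a share of the summed CPM per kb of Ago1 to Ago4, Ago3 made up 86.8% and 89.9% in the knockdown libraries, against 84.4% and 86.6% in the control libraries. Ago2 made up 8.12% and 6.77% in knockdown, against 11.1% and 7.15% in control, a mean of 7.45 ± 0.958% and 9.11 ± 2.77% (SD, n = 2 each). The difference in the Ago2 share, -1.66 percentage points, was smaller than the spread between the control replicates (exact permutation test, two-sided, p = 0.667, where the smallest p that 2 libraries against 2 can give is 0.333). Without control replicate 1 the difference was 0.292 percentage points, in the other direction. These are shares of transcripts, and the proteins inherited from the egg were not measured.

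**Figure D3:**
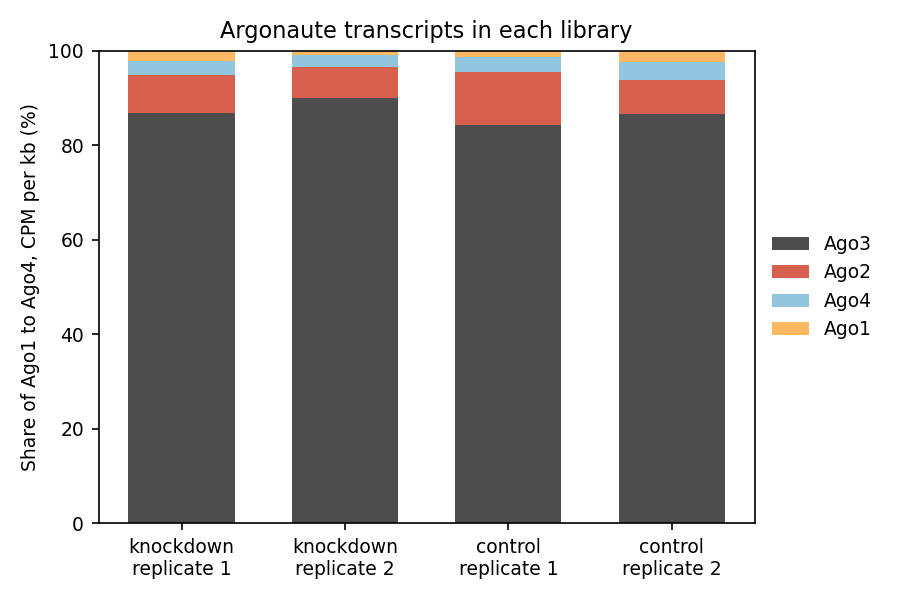
Share of each Argonaute in the summed CPM per kb of Ago1 to Ago4, 1 bar per library with the knockdown libraries left. Ago3 takes between 84.4 and 89.9% of every bar and Ago2 between 6.77 and 11.1%.

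Of the nuclear pair, Drosha was abundant and Dgcr8 was not. Drosha, the nuclease of the Microprocessor (ENSMUSG00000022191, chromosome 15, 12824815 to 12935291), had 99.1 and 78.7 CPM in knockdown, against 73.9 and 83.1 CPM in control. Knockdown replicate 1 was the highest library and the other 3 lay close together. The log2 fold change was 0.18 (SE 0.16, edgeR adjusted p 0.9999), and without knockdown replicate 1 it was 0.0048. Per length, Drosha exceeded Dgcr8 by 18.1-fold and 12.3-fold in the knockdown libraries and by 14.9-fold and 10.9-fold in the control libraries.

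Dgcr8, which recognises the hairpin for Drosha (ENSMUSG00000022718, chromosome 16, 18253948 to 18289246), had 7.11 and 8.32 CPM in knockdown, against 6.45 and 9.87 CPM in control. Both knockdown values lay between the control values, and the fitted log2 fold change was -0.08 (SE 0.32). It was above 0 without control replicate 2 (0.26) and without knockdown replicate 1 (0.03). Exons of Trmt2a on the opposite strand cover 10.7% of the Dgcr8 exon bases, and the strand setting of the counting is not given. Trmt2a itself had between 112 and 157 counts a library, against 572 to 793 for Dgcr8.

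In mammals the Dgcr8 messenger RNA is itself a substrate of the Microprocessor, which cuts hairpins near its start and so limits its own supply. A hairpin inside the coding sequence yields miR-1306, and miR-3618 lies in Dgcr8 outside the coding sequence. An intron of Xpo5 holds miR-693, so transcripts of the pathway's own genes carry microRNA hairpins. The mature sequences of miR-1306 and miR-693 are RefSeq's on GRCm38.p6, with the seed (bases 2 to 8) in capitals. They are shown because they lie within the transcripts described here. The first pair lies at chr16:18284288-18284310 and chr16:18284248-18284268 on the minus strand, and the second at chr17:46231551-46231571 and chr17:46231581-46231603 on the plus strand.
mmu-miR-1306-5p: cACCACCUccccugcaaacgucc
mmu-miR-1306-3p: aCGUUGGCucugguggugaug
mmu-miR-693-5p: cAGCCACAuccgaaaguuuuc
mmu-miR-693-3p: gCAGCUUUcagauguggcuguaa
No seed is shared among these 4. The row of Mir1306 held 1 count in each library and that of Mir693 held 0 in each. Poly(A) libraries of this kind do not measure mature microRNAs, and 210 rows of the table, 107 of them microRNA genes, hold exactly 1 count in all 4 libraries, so a count of 1 is not read as a detected transcript here. Since the counting tool is not stated, the counts may be rounded estimates, and low values such as 0 or 1 are then not numbers of reads.

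Xpo5, the receptor that exports hairpin precursors (ENSMUSG00000067150, chromosome 17, 46202782 to 46243598), had 7.84 and 8.77 CPM in knockdown, against 14.5 and 8.96 CPM in control. Control replicate 1 stood apart from the other 3 libraries, which lay within a narrow range. The groups did not overlap, but the gap between knockdown replicate 2 and control replicate 2 was small. The log2 fold change was -0.50 (SE 0.32, 95% interval -1.30 to 0.30, unadjusted p 0.175 and adjusted p 0.9999 by edgeR), the lowest of the 10 genes. Without control replicate 1 it was -0.11.

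Dicer1, which cuts precursors and long double-stranded RNA (ENSMUSG00000041415, chromosome 12, 104687742 to 104751952), was the best measured member. It had 491 and 486 CPM in knockdown, against 521 and 496 CPM in control. Both knockdown libraries lay below both control libraries, but the fold between the groups, 0.961, was no further from 1 than that between the control replicates, 1.05-fold. The 95% interval of the fold was 0.827 to 1.12 (edgeR, unadjusted p 0.536) and was the narrowest of the 10.

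Both partners of Dicer1 had far lower levels per length than Dicer1 itself. Tarbp2, the double-stranded RNA binding protein that helps Dicer1 to load Argonaute (ENSMUSG00000023051, chromosome 15, 102518192 to 102523676), had 12.1 and 11.6 CPM in knockdown, against 7.78 and 7.80 CPM in control. The knockdown libraries lay close together above the control libraries, which were nearly equal. The fold was 1.52 (95% interval 1.00 to 2.30) and the log2 fold change 0.60 (SE 0.24), with an unadjusted p of 0.0497 and an adjusted p of 0.9999 by edgeR, so Tarbp2 did not pass the test over all genes. The size was steady, with a log2 fold change of 0.58 to 0.64 without any 1 library, while the unadjusted p was then 0.0639 to 0.216. Both knockdown libraries also had higher summed 2-cell stage genes and lower summed oocyte genes than both control libraries. Of the 11 stage genes, 7 had a fitted log2 fold change above 0 and 4 below. Zfp352 and the related genes Zscan4c, Zscan4d and Zscan4f were higher in both knockdown libraries. Zscan4f had 238 and 211 CPM against 147 and 158 CPM in control. Tcstv3 and Tdpoz4 were lower in both knockdown libraries. Tcstv3 had 62.7 and 69.4 CPM against 70.9 and 70.2 CPM in control, and Tdpoz4 9.98 and 3.77 CPM against 12.6 and 10.1 CPM. The stage sum without the Zscan4 genes was not taken. Of the 12 oocyte genes, 2 were above 0 and 10 below. The part of these differences in that of Tarbp2 was not tested.

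Prkra, the related partner also known as PACT, an activator of the kinase PKR (ENSMUSG00000002731, chromosome 2, 76629898 to 76648015), could hardly be measured. It had 107 and 41 counts in knockdown and 138 and 18 counts in control, which is 1.11 and 0.436 CPM against 1.56 and 0.224 CPM. Replicate 1 was the higher one in both groups, and the control replicates differed 6.94-fold. The 95% interval of the fold ran from 0.134 to 5.63, so a difference was not detectable at this spread. The sign of the fold change turned without control replicate 1 (log2 1.78) and without knockdown replicate 2 (0.32).

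For 7 of the 10 genes the control replicates differed by more than the groups did, and for 6 the knockdown replicates did. Tarbp2 and Ago3 were the members whose fitted difference exceeded the gap within both groups. The same shares were not taken over all genes tested, so whether the members stand out in this was not tested. A gap lies between single libraries and the fitted difference between groups of libraries, so by chance alone the gap tends to be the wider.

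**Figure D4:**
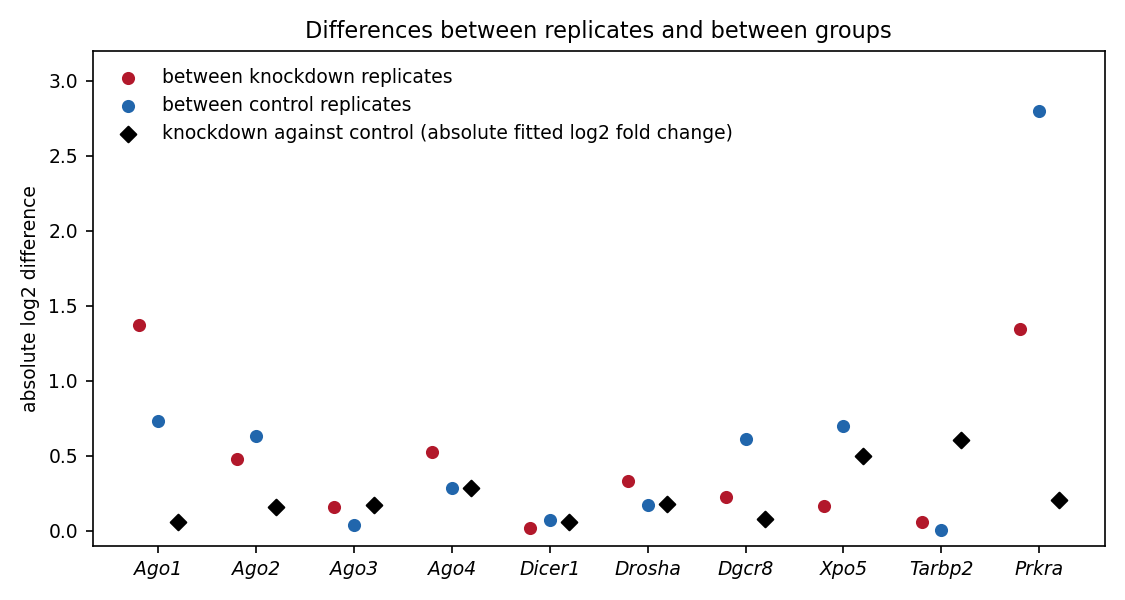
Absolute log2 difference of each gene between the knockdown replicates, between the control replicates, and between the groups (the fitted value). Tarbp2 shows a group difference of 0.60 with replicate gaps of 0.055 in knockdown and 0.0045 in control, while the control replicates of Prkra differ by 2.80.

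The wider pathway was read from 6 lists holding 118 genes, of which 113 were tested. None passed (edgeR, smallest adjusted p 0.9999). Before adjustment 2 of them had a p under 0.05, both lower in knockdown, which is 1.77% against 3.85% of all genes tested. The groups did not overlap for 43 genes, 38.1% against 32.7% of all genes, and the median log2 fold change was 0.04.

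Partners that act with Argonaute on a target had 14 of 23 genes above 0 and a median log2 fold change of 0.10. The smallest p in that list belonged to Lsm14a, an RNA granule protein, with 564 and 678 CPM in knockdown and 522 and 522 CPM in control (log2 fold change 0.25, edgeR unadjusted p 0.0749). Wtip, a LIM domain protein, followed with 0.114 and 0 CPM in knockdown and 0.902 and 0.560 CPM in control. Microprocessor partners had 13 of 21 genes above 0 and a median of 0.06. Hnrnpr, an RNA-binding protein, had 80.5 and 81.1 CPM in knockdown and 91.2 and 94.9 CPM in control. Erh, a small protein that binds the Microprocessor, had 328 and 330 CPM in knockdown and 292 and 305 CPM in control, and 17.5% of its exon bases overlap Slc39a9 on the other strand. Chaperones and other factors of Argonaute loading had 12 of 18 tested genes above 0 and a median of 0.07. Ahsa1, a cochaperone of Hsp90, had 350 and 354 CPM in knockdown and 416 and 386 CPM in control, and Fkbp5, another, had 124 and 147 CPM in knockdown and 113 and 117 CPM in control.

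Factors of precursor tailing and small RNA decay had 8 of 19 genes above 0 and a median of -0.07. Dis3l2, the exonuclease that degrades uridylated precursors, had 3.05 and 2.79 CPM in knockdown, against 7.73 and 5.90 CPM in control (log2 fold change -1.22, SE 0.34, edgeR unadjusted p 0.0125 and adjusted p 0.9999). Pnpt1, a mitochondrial exoribonuclease, had 16.6 and 20.8 CPM in knockdown and 25.1 and 28.4 CPM in control. The PIWI and piRNA list, the germline branch of the Argonaute family, had 10 of 23 tested genes above 0 and a median of -0.07. Piwil4 had 0 counts in both knockdown libraries, against 72 and 26 counts in the control libraries. It did not pass the test (edgeR unadjusted p 0.00818, adjusted p 0.9999). Its level in control was below 1 CPM. Mael, a piRNA factor of germ cells, had 56.4 and 60.0 CPM in knockdown and 46.8 and 46.2 CPM in control.

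**Figure D5:**
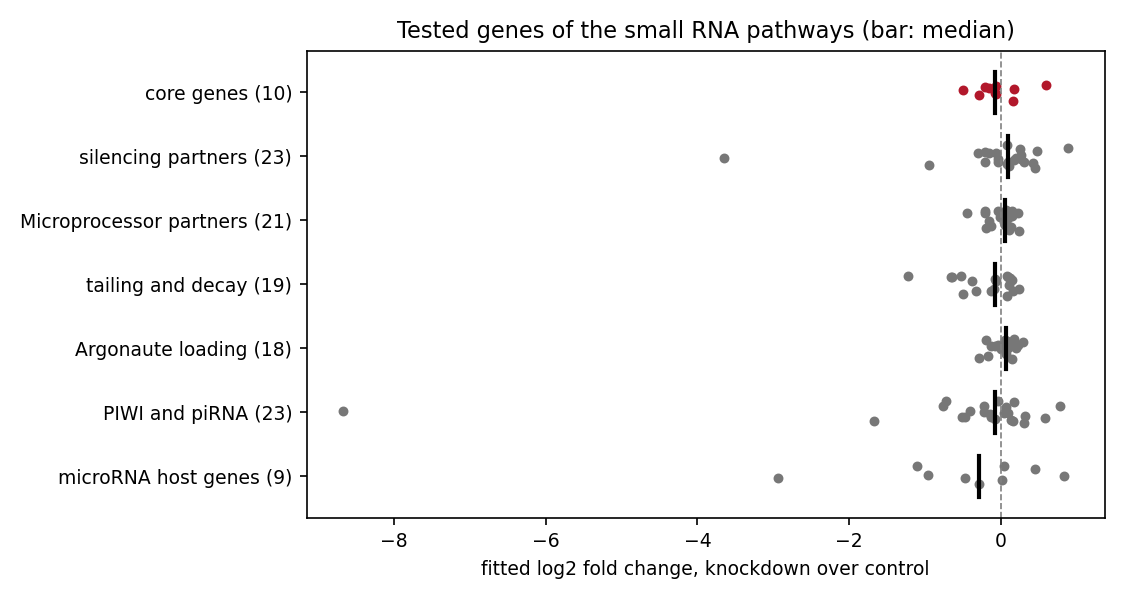
Fitted log2 fold change, knockdown over control, of the tested genes of the core group and of the 6 wider lists, with a bar at each median. The medians lie between -0.29 and 0.10, and the point far to the left is Piwil4, whose fitted value rests on 0 counts in knockdown.

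Substrates of the pathway were read from a list of polyadenylated host genes picked by name, which leaves out hairpin carriers such as Dgcr8 and Xpo5. Of the 12 listed host genes 9 were tested, with 4 above 0 and a median log2 fold change of -0.29. Mir22hg had the smallest p, with 9.66 and 9.65 CPM in knockdown and 6.97 and 7.17 CPM in control (edgeR unadjusted p 0.129), and Mir670hg followed with 0 and 0.0852 CPM in knockdown and 0.372 and 0.299 CPM in control. In Mir22hg, 10.7% of the exon bases are shared with Tlcd2, a protein-coding gene on the same strand. Tlcd2 had 730 and 864 counts in knockdown and 655 and 591 in control. Mir22hg itself had 933 and 907 counts in knockdown and 618 and 576 in control. How reads in the shared bases were counted is not stated. Dleu2, one of the pair of listed host genes with the highest mean CPM, had 42.3 and 28.4 CPM in knockdown and 34.7 and 34.0 CPM in control. The sequences below show what these hosts carry: the miR-15a and miR-16 strands of Dleu2 (chr14:61632075-61632096 and chr14:61631936-61631957, minus strand) share a seed, and that of miR-22 (chr11:75463772-75463793, plus strand) differs.
mmu-miR-15a-5p: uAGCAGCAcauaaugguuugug
mmu-miR-16-5p: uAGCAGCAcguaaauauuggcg
mmu-miR-22-3p: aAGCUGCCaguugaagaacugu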

How the data were processed

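The authors deposited one table of whole-number counts per gene, 53715 rows by 4 libraries, not normalized by its values. Per the submitters' processing notes, reads were handled with HISAT2 2.1.0, Trim Galore 0.6.5, CASAVA 1.8 and Picard 2.18.2 on mm10, the role of each unstated. The counting tool, annotation, strand setting and treatment of duplicates are not stated, and no molecular identifiers are named. Symbols, positions and exon lengths came from GENCODE M21 (GRCm38), which matched 53620 rows by ID, 51464 with the same version. Dgcr8 and Xpo5 carry an earlier version, so their lengths may differ slightly.

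Genes were kept by filterByExpr (minimum of 10 counts), scaled by TMM and tested with edgeR 4.0.16 in R 4.3.3, quasi-likelihood F-test, two-sided, with group as the only term and a threshold of 0.05 on Benjamini-Hochberg adjusted p. The test was run on counts simulated from its own fitted model. That run checked the code and did not measure how small a change these libraries could show. CPM is TMM-scaled. The SE is the absolute log2 fold change over the square root of F. With 2 libraries a group, values of both are given in place of most SDs. No 2 libraries agreed within sampling noise (smallest chi-square per degree of freedom 30.9, control replicates). The knockdown replicates were the least alike pair, at 103 on this measure. Each of them was closer to both control libraries, at 47 to 71.3, than to the other knockdown library.

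All 10 members are described, and the 2 tested genes with the smallest p in each wider list. Dleu2 was added after its values were seen. The members, the lists and this rule were chosen with earlier results of these data known. Alternatives were DESeq2 1.42.0, limma-voom (limma 3.58.1), another scaling, other filters, each library left out and the replicate number as a block.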

Additional observations from a re-analysis of the deposited data

How the results depend on the processing

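No member was called under any of the 11 alternatives (lowest adjusted p 0.456), and 94 of 105 refitted fold changes kept their direction. Ago3, Dicer1, Drosha and Xpo5 kept theirs in all 11, and Ago4 and Tarbp2 in the 10 in which they were tested. Prkra was above 0 with limma-voom (0.17), the replicate block (0.21) and the crossed replicate block (0.21), and ran from -1.03 to 1.78 without 1 library. Without 1 library Ago1 ran from -0.90 to 0.47, Ago2 from -0.44 to 0.19 and Dgcr8 from -0.36 to 0.26 on the log2 scale. Members at an unadjusted p under 0.05 numbered 0 at a mean of at least 10 CPM, where Tarbp2, Ago4, Ago1, Dgcr8 and Prkra were not tested, 0 with the replicate block, 0 with the crossed one, and 0 to 2 without 1 library. Their median log2 fold change ran from -0.24 to 0.16 without 1 library, and the Ago2 share difference from -3.62 to 0.292 points. Over all genes DESeq2 called 53, and 0 to 3 were called without 1 library; the cause was not tested. Whether the replicate numbers mark a shared collection is not stated, and 2 pairs cannot settle it. Deviations of same-numbered libraries correlated at -0.212 across 8185 genes, and the crossed pairing, added after the data were seen, called 0 genes. In fits without 1 library the lone library is assumed to vary like the other group. The low counts of Prkra, Ago1 and Ago4 limit what could be detected for them.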

Other observations

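The ratio of Dicer1 to Tarbp2, in CPM per kb, was 11.1 and 11.4 in the knockdown libraries, against 18.2 and 17.3 in the control libraries. The ratio was chosen after the values of both genes were seen, so it has no test, and it restates the difference of Tarbp2. The ratio of Tarbp2 to Prkra, in the same unit, was 4.85 and 11.9 in knockdown and 2.23 and 15.5 in control, with the replicates of each group far apart.

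Of the PIWI clade, Piwil1 had 14.2 and 15.6 CPM in knockdown and 14.9 and 9.13 CPM in control, and Piwil2 had 7.18 and 5.27 CPM in knockdown and 7.54 and 6.93 CPM in control. Among the GW182 proteins, the scaffolds that link Argonaute to deadenylases, Tnrc6b had the highest level per length, 7.69 CPM per kb over the 4 libraries, with 174 and 201 CPM in knockdown and 177 and 177 CPM in control. Tnrc6c had 4.16 CPM per kb and Tnrc6a 1.13 CPM per kb. Lin28a and Lin28b, which bind let-7 precursors, had 8.50 and 6.08 CPM per kb. None of these passed the test (edgeR, adjusted p 0.9999), and they were chosen after their values were seen.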
